A study of Arabidopsis thaliana with 6 samples.

Results

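The 10 JAZ repressor genes JAZ1, JAZ2, JAZ3, JAZ5, JAZ6, JAZ7, JAZ8, JAZ9, JAZ10 and JAZ12 were followed in Arabidopsis thaliana seedlings fed glutamate or ammonium nitrate. They were taken by their locus codes, with earlier results of these data known, and are 10 of the 33602 genes in the deposited table. Whole seedlings of the Columbia ecotype were sampled after 12 days on agar plates. One group grew on 5 mM glutamate as its only nitrogen source (3 libraries) and the other on 5 mM ammonium nitrate (3 libraries). All plates held 1/2 MS salts free of nitrogen and 0.5% sucrose, and both groups had 2 days of cold and then 16 h of light and 8 h of dark at 22 °C. Ammonium nitrate carries 2 nitrogen atoms, so those plates held 10 mM nitrogen and the glutamate plates 5 mM. The nitrogen source and its amount cannot be told apart here.

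JAZ proteins are the repressors at the centre of jasmonate signalling. In unstressed cells they bind MYC transcription factors and hold them inactive, mostly through the adaptor NINJA and the TOPLESS co-repressors. When jasmonoyl-isoleucine accumulates, for example after wounding or herbivore attack, it joins a JAZ protein to the F-box protein COI1, and the JAZ is degraded. The freed MYC factors switch on their targets, JAZ genes among them, so that the repressors are remade. JAZ transcripts are therefore commonly read as a gauge of jasmonate output, although a transcript level does not give the level of a repressor that is controlled by degradation.

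The G-box, CACGTG, is the motif that MYC factors bind, and the sites upstream of the JAZ genes are shown first because the members are known as MYC targets. In the 1000 bases before the annotated start, 8 of the 10 members held a G-box, against 14.9% of 26711 protein-coding promoters. In the nearest 300 bases it was found before 4 members, against 7.18% of promoters. The motif was searched in the RefSeq TAIR10.1 genome; it reads the same on both strands. The site nearest the start of each of the 8 genes is printed 5′ to 3′ on the gene's strand, with the G-box in capitals and its first base counted back from the start.
JAZ1, chr1:6620913-6620958, plus strand, 844 bases before the start: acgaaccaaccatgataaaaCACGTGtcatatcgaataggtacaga
JAZ2, chr1:28150487-28150532, minus strand, 66 bases before the start: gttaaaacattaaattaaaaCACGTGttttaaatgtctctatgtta
JAZ5, chr1:5958075-5958120, minus strand, 589 bases before the start: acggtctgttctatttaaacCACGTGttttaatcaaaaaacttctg
JAZ6, chr1:27277015-27277060, minus strand, 478 bases before the start: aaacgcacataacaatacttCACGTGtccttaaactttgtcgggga
JAZ7, chr2:14572976-14573021, plus strand, 34 bases before the start: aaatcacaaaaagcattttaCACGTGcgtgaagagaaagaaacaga
JAZ8, chr1:10596322-10596351, plus strand, 10 bases before the start: gtgtggaaaaaaacattttcCACGTGagag
JAZ3, chr3:6119605-6119650, plus strand, 82 bases before the start: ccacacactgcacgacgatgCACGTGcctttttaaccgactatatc
JAZ9, chr1:26654143-26654188, plus strand, 366 bases before the start: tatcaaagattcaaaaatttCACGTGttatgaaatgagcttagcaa
The sites of JAZ1 and JAZ6 lie within the annotated neighbouring loci AT1G05473 and AT1G09307. JAZ10 and JAZ12 had no G-box in this window. The related T/G-box, AACGTG on either strand, was found within 1000 bases of 9 members, against 23.9% of promoters, and within 300 bases of 4 members, against 8.76%. The GCC-box, GCCGCC on either strand, which ethylene response factors bind, was found within 1000 bases of JAZ8 alone among the members, against 8.45% of promoters, and within 300 bases of none, against 2.24%. No 6-base match was counted under more than 1 motif, and a match is a description of the letters only. Of the 8 members with a G-box within 1000 bases, JAZ9 was called lower on glutamate and the others were called higher. Without one, JAZ10 was called higher and JAZ12 did not pass. A link between the motif and the response was not tested.

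Levels are in RPKM, which divides the reads of a gene by its length and by the size of the library, so that genes can be compared with each other. Between 49520237 and 63424574 reads fell on genes in each library. A gene of 1 kb gained 0.0152 to 0.0211 RPKM with each read, and a count of 0 allows up to 0.0455 to 0.0633 RPKM there (3 reads, counting error only). None of the members had multiply mapped reads. Log2 fold changes are those of log2(RPKM + 1), glutamate over ammonium nitrate, with the standard error (SE). This scale understates changes of genes with low values. Adjusted p-values are from limma, two-sided, with Benjamini-Hochberg adjustment over the 20032 genes whose mean reached 1 RPKM. Nothing in the labels shows that replicate libraries were grown as separate cultures, and the p-values then reflect only how far these samples lie apart, a spread that may be technical.

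On glutamate 8 of the 10 JAZ genes rose, JAZ9 fell, and JAZ12 did not pass the test. JAZ1, the member whose binding to COI1 is best studied, rose 4.44-fold and was second only to JAZ12 in level there. JAZ8 was near its detection limit on ammonium nitrate and clearly detected on glutamate. Over all tested genes 35.0% were called higher and 36.8% lower, so a call by itself is common in this comparison. The members' median log2 fold change was 0.63, against -0.02 over all tested genes. For 9 of the 10 members the ranges of the groups were separate, against 76.1% of tested genes.

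**Figure D1:**
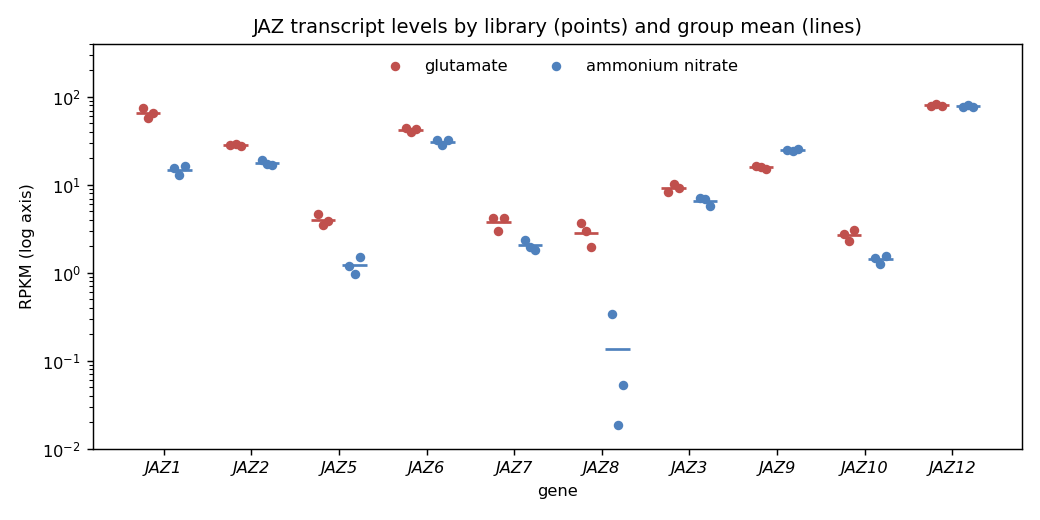
RPKM on a log axis for each of the 10 JAZ genes; points are libraries (3 glutamate, left, and 3 ammonium nitrate, right, for each gene) and lines are group means. JAZ1 sits between 57.1 and 75.8 RPKM on glutamate and between 12.8 and 16.3 RPKM on ammonium nitrate, JAZ9 is lower on glutamate, and the JAZ12 groups overlap.

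JAZ1 and JAZ2 are close paralogs that both bind COI1 in the presence of the hormone. JAZ1 (AT1G19180, chr1:6621777-6623668, TAIR10.1) had 75.8, 57.1 and 65.3 RPKM in the glutamate libraries and 15.5, 12.8 and 16.3 RPKM in the ammonium nitrate libraries. Every glutamate library was far above every ammonium nitrate library, and the log2 fold change was 2.08 ± 0.12 (SE, adjusted p = 1.7e-06). This rested on 4544 to 7106 reads per glutamate library and 926 to 1237 per ammonium nitrate library.

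JAZ2 (AT1G74950) rose less than its paralog. It had 28.4, 29.3 and 28.0 RPKM on glutamate and 19.2, 17.1 and 17.0 RPKM on ammonium nitrate, and its log2 fold change was 0.66 ± 0.06 (SE, limma adjusted p = 2.02e-05). The groups did not overlap. On ammonium nitrate JAZ2 was the more abundant of the pair in all 3 libraries, whereas on glutamate JAZ1 was the more abundant in all 3. The log2 ratio of JAZ1 to JAZ2, taken on RPKM + 1, averaged 1.17 ± 0.23 on glutamate and -0.25 ± 0.17 on ammonium nitrate (SD, n = 3 each), a difference of 1.42.

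JAZ5 and JAZ6 form another paralogous pair, and here the scarce member changed more. JAZ5 (AT1G17380) had 4.62, 3.53 and 3.92 RPKM on glutamate and 1.19, 0.959 and 1.52 RPKM on ammonium nitrate. The groups lay well apart, 3.29-fold by their means, and the log2 fold change was 1.18 ± 0.12 (SE, adjusted p = 4.72e-05). JAZ6 (AT1G72450), which ranked after JAZ12 and JAZ1 on glutamate, had 44.9, 40.1 and 42.9 RPKM on glutamate and 32.0, 28.1 and 32.2 RPKM on ammonium nitrate. It rose 1.39-fold (log2 0.46 ± 0.07, SE, adjusted p = 0.000392), without overlap between the groups. The log2 ratio of JAZ5 to JAZ6 differed by 0.72 between the groups; with a pseudocount of 0.1 RPKM in place of 1 the difference was 1.18.

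JAZ7 and JAZ8 carry an EAR motif, through which they recruit TOPLESS without NINJA, and JAZ8 lacks the canonical degron, so it resists jasmonate-dependent destruction. JAZ7 (AT2G34600) had 4.20, 3.02 and 4.16 RPKM on glutamate and 2.38, 1.95 and 1.83 RPKM on ammonium nitrate. It rose 1.85-fold (log2 0.65 ± 0.12, SE, adjusted p = 0.0017), and its lowest glutamate library stayed above its highest ammonium nitrate library.

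JAZ8 (AT1G30135, chr1:10596352-10597341) had 3.65, 3.01 and 1.95 RPKM on glutamate, from 126, 88 and 72 reads. On ammonium nitrate it had 0.341, 0.0187 and 0.0535 RPKM, from 9, 0 and 1 reads; the deposited values add 0.5 read to each gene, so a gene with no reads is not listed at 0. Replicate 1 thus held 9 of the 10 reads of its group, and no fold of the means is given. The log2 fold change on the RPKM + 1 scale was 1.75 ± 0.18 (SE, adjusted p = 5.25e-05), a value that depends on the pseudocount: it was 3.85 with 0.1 RPKM and 0.61 with 5 RPKM. Without any one library it lay between 1.61 and 1.94 and kept its call. JAZ8 was the only member with a mean over 1 RPKM on glutamate and under 1 RPKM on ammonium nitrate, and so passed the filter on level through glutamate.

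JAZ3 and JAZ9 belong to one clade and moved in opposite directions. JAZ3 (AT3G17860), known from the jai3-1 allele whose truncated protein blocks jasmonate responses, had 8.40, 10.2 and 9.11 RPKM on glutamate and 7.04, 6.90 and 5.83 RPKM on ammonium nitrate. It rose 1.40-fold (log2 0.43 ± 0.09, SE, adjusted p = 0.00291), with no overlap between the groups. JAZ9 (AT1G70700, chr1:26654529-26657350), which also binds the DELLA protein RGA, had 16.4, 16.0 and 15.3 RPKM on glutamate and 24.6, 24.1 and 25.7 RPKM on ammonium nitrate. All 3 glutamate libraries were below all 3 ammonium nitrate libraries, with a ratio of 0.641 (log2 -0.61 ± 0.05, SE, adjusted p = 1.43e-05). JAZ9 was the only member called lower, and it was called lower without any one library too. The log2 ratio of JAZ3 to JAZ9 averaged -0.73 ± 0.15 on glutamate and -1.77 ± 0.17 on ammonium nitrate (SD, n = 3 each), a difference of 1.04.

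The difference between paralogs was tested for 4 pairs with an exact two-sided permutation test over the libraries. JAZ1 over JAZ2, JAZ5 over JAZ6 and JAZ3 over JAZ9 were higher on glutamate, and JAZ7 over JAZ8 was lower there, by 1.11. The last value depends on the pseudocount, since JAZ8 was near its detection limit on ammonium nitrate: it was -3.00 with 0.1 RPKM. In each pair the groups did not overlap, and each exact p was 0.1, also after adjustment over the 4 pairs. That is the smallest p that 3 against 3 libraries allow, so none can pass 0.05.

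JAZ10 is known for splice variants that lack part of the degron and resist degradation; the values are per gene, so they do not separate the variants. JAZ10 (AT5G13220) had 2.78, 2.32 and 3.06 RPKM on glutamate and 1.47, 1.25 and 1.57 RPKM on ammonium nitrate. It rose 1.90-fold (log2 0.61 ± 0.10, SE, adjusted p = 0.000872), with no overlap. In TAIR10.1 it shares 71 bases with the noncoding locus AT5G02045 on the other strand, which the deposited table does not list.

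JAZ12, whose protein is kept from degradation by the ubiquitin ligase KEG, was the most abundant member in both groups. JAZ12 (AT5G20900) had 79.9, 83.8 and 78.3 RPKM on glutamate and 77.4, 81.3 and 75.9 RPKM on ammonium nitrate. The groups overlapped, and the log2 fold change was 0.04 ± 0.05 (SE, adjusted p = 0.433). With libraries scaled to equal totals in place of the authors' scaling it was 0.15 and passed (adjusted p = 0.0208); over the alternatives tried its adjusted p ran between 0.0208 and 1.0, and it passed under that scaling alone. The end of JAZ12 shares 28 bases with AT5G20910 on the other strand, which had 21.7 ± 0.871 RPKM on glutamate and 11.6 ± 0.438 RPKM on ammonium nitrate (SD, n = 3 each). It also shares 211 bases with the noncoding locus AT5G03235. The sources used here do not give whether reads were counted by strand, and the part of these overlaps in the JAZ12 and JAZ10 values was not tested.

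**Figure D2:**
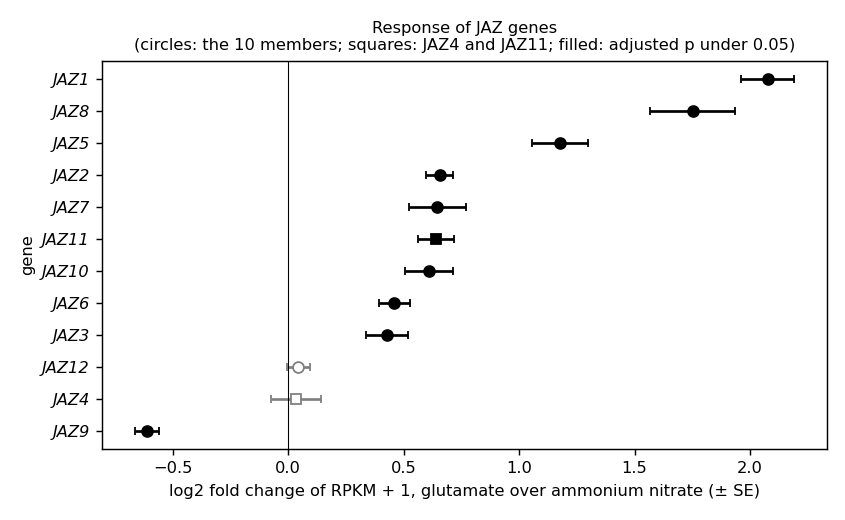
Log2 fold change of RPKM + 1, glutamate over ammonium nitrate, with SE from limma, for the 10 members (circles) and for JAZ4 and JAZ11 (squares); filled symbols have an adjusted p under 0.05. JAZ1, JAZ8 and JAZ5 stand above 1, JAZ9 stands at -0.61, and JAZ12 and JAZ4 are near 0.

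The order of the levels differed between the groups. On glutamate it ran JAZ12, JAZ1, JAZ6, JAZ2, JAZ9, JAZ3, JAZ5, JAZ7, JAZ8 and JAZ10, by mean RPKM from high to low. The ranges over libraries of the first 6 did not overlap with the next in line, and the neighbours among JAZ5, JAZ7, JAZ8 and JAZ10 overlapped. On ammonium nitrate it ran JAZ12, JAZ6, JAZ9, JAZ2, JAZ1, JAZ3, JAZ7, JAZ10, JAZ5 and JAZ8, and only JAZ10 and JAZ5 overlapped as neighbours. JAZ1 thus had rank 2 on glutamate and rank 5 on ammonium nitrate, whereas JAZ9 had rank 5 on glutamate and rank 3 on ammonium nitrate.

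Summed over the 10 members, the level was 269, 248 and 252 RPKM on glutamate and 181, 174 and 178 RPKM on ammonium nitrate. The groups did not overlap, and the ratio of means was 1.44. With equal totals per library the ratio was 1.56. Without JAZ1 the sum was 190 ± 3.35 RPKM on glutamate and 163 ± 2.29 RPKM on ammonium nitrate (SD, n = 3 each), a ratio of 1.17. JAZ1 made up 25.7% ± 2.60 of the summed level on glutamate and 8.35% ± 0.926 on ammonium nitrate. JAZ12 made up 31.5% ± 2.06 on glutamate and 44.0% ± 2.25 on ammonium nitrate, and JAZ9 6.21% ± 0.206 on glutamate and 14.0% ± 0.443 on ammonium nitrate (SD, n = 3 each). The pool on glutamate therefore held a larger share of JAZ1 and smaller shares of JAZ12 and JAZ9, and no p is given for these sums and shares.

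**Figure D3:**
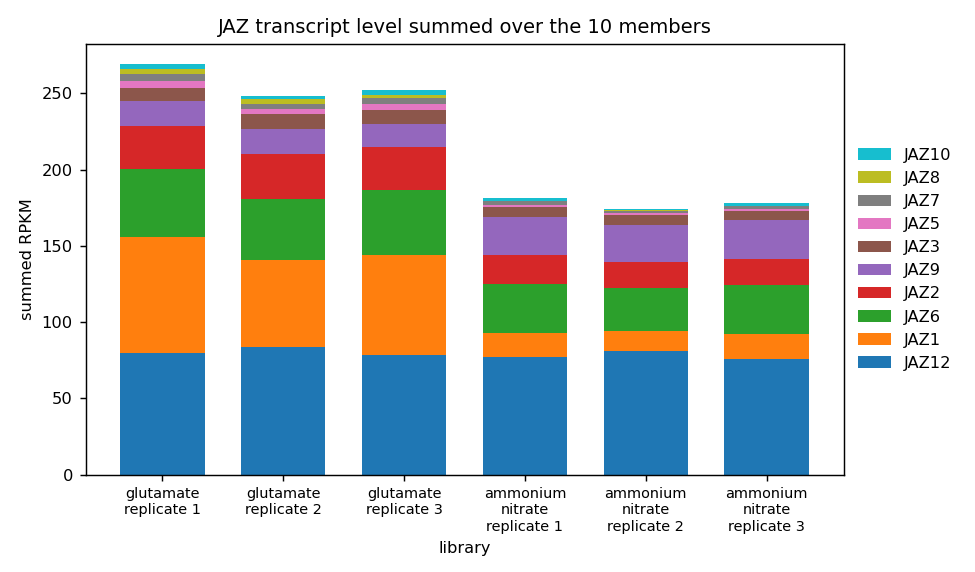
Summed RPKM of the 10 JAZ genes in each library, stacked by gene. The 3 glutamate libraries reach 248 to 269 RPKM and the 3 ammonium nitrate libraries 174 to 181 RPKM; the JAZ1 layer is the one that differs most in height.

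The 5 tested genes nearest to JAZ1 in their profile over the 6 libraries were sought by the root mean square distance of log2(RPKM + 1), each gene centred on its own mean. They were ChiC (AT4G19810, 0.0669), AT4G17660 (0.0692), RING1 (AT5G10380, 0.0748), SYP122 (AT3G52400, 0.0767) and AT1G56150 (0.0823). ChiC, for example, had 105 ± 8.38 RPKM on glutamate and 22.9 ± 2.16 RPKM on ammonium nitrate, and SYP122 had 129 ± 16.7 RPKM on glutamate and 30.5 ± 2.39 RPKM on ammonium nitrate (SD, n = 3 each). AT4G17660 had 3.83 ± 0.675 RPKM on glutamate and 0.115 ± 0.0739 RPKM on ammonium nitrate (SD, n = 3 each). It passed the filter on level only through glutamate, and its distance depends on the pseudocount, which compresses its change. No member was that near: JAZ8 lay at 0.277, JAZ5 at 0.452 and JAZ9, the farthest, at 1.35. JAZ8 was near its detection limit on ammonium nitrate, so its distance depends on the pseudocount, as its log2 fold change does. These distances are descriptions over 6 libraries of 2 groups, and most of each profile is the difference between the groups.

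Of the 3 other JAZ genes considered, JAZ11 rose and JAZ4 did not pass. JAZ11 (AT3G43440) had 18.9, 21.1 and 17.1 RPKM on glutamate and 11.5, 11.7 and 12.3 RPKM on ammonium nitrate (log2 0.64 ± 0.08, SE, adjusted p = 0.000113). JAZ4 (AT1G48500) had 4.05 ± 0.404 RPKM on glutamate and 3.95 ± 0.598 RPKM on ammonium nitrate (SD, n = 3 each; adjusted p = 0.792). AT3G22275, annotated as a jasmonate ZIM-domain protein, had 5, 1 and 6 reads on glutamate and 2, 0 and 1 on ammonium nitrate and was below the filter on level. Among the 6 other genes of the TIFY family, whose ZIM domain the JAZ proteins share, none rose, 3 fell and 3 did not pass. The shares over all tested genes were 35.0% called higher and 36.8% called lower. TIFY8 had 20.9 ± 0.159 RPKM on glutamate and 52.7 ± 3.35 RPKM on ammonium nitrate, a log2 fold change of -1.29. PPD1, a regulator of leaf growth that also binds NINJA, had 6.34 ± 0.219 RPKM on glutamate and 11.0 ± 0.817 RPKM on ammonium nitrate (SD, n = 3 each). ZML1 had a log2 fold change of -0.17 (adjusted p = 0.0167), and it no longer passed with equal totals per library (adjusted p = 0.302) or without glutamate replicate 3, ammonium nitrate replicate 1 or ammonium nitrate replicate 3 (adjusted p = 0.0546, 0.0514 and 0.0515; 0.00987 to 1.0 over the alternatives).

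The partners through which JAZ proteins are destroyed or repress moved either way or did not pass the test. Of 10 genes for the receptor complex and the co-repressors, 2 rose, 2 fell and 6 did not pass. Of the 20032 tested genes 5642 did not pass, 35.0% were called higher and 36.8% lower. The median log2 fold change of the list was -0.05. With equal totals 4 genes of the list were called higher and 1 lower. COI1, the receptor subunit, had 23.3 ± 1.45 RPKM on glutamate and 21.1 ± 1.01 RPKM on ammonium nitrate (SD, n = 3 each; adjusted p = 0.0728). It passed with equal totals (log2 0.25, adjusted p = 0.00923), the lowest adjusted p over the alternatives, which reached 1.0. NINJA had 47.3 ± 1.91 RPKM on glutamate and 49.3 ± 1.41 RPKM on ammonium nitrate (SD, n = 3 each; adjusted p = 0.304).

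Among the co-repressors TPR4, a TOPLESS relative, rose to 17.8 ± 0.689 RPKM on glutamate, against 11.8 ± 0.394 RPKM on ammonium nitrate (SD, n = 3 each; adjusted p = 3.28e-05). TOPLESS itself (TPL) had 42.5 ± 1.52 RPKM on glutamate and 50.0 ± 3.14 RPKM on ammonium nitrate (SD, n = 3 each; adjusted p = 0.00711), a call lost with equal totals (adjusted p = 0.101; 0.00271 to 1.0 over the alternatives). ASK2, a SKP1-type subunit of the ubiquitin ligase, fell to 84.7 ± 2.66 RPKM on glutamate, against 100 ± 0.992 RPKM on ammonium nitrate (SD, n = 3 each; adjusted p = 0.00121).

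Of 14 genes for transcription factors that JAZ proteins bind, 11 passed the filter on level. Among these 3 rose, 3 fell and 5 did not pass, and the median log2 fold change was 0.00. All tested genes were called higher in 35.0% of cases and lower in 36.8%. The count of 3 that fell includes MYC4, named after its values were seen, at the threshold (adjusted p = 0.0499); with equal totals 1 was called lower, and 2 were called lower without any one library, with a pseudocount of 5 RPKM and without multiply mapped genes. MYC2, the principal MYC factor of the pathway, had 36.2, 20.2 and 34.6 RPKM on glutamate and 14.3, 13.8 and 15.2 RPKM on ammonium nitrate. Glutamate replicate 2 was well below the other two of its group but above every ammonium nitrate library, and the log2 fold change was 0.98 ± 0.19 (SE, adjusted p = 0.00191). MYC3 had 54.3 ± 2.32 RPKM on glutamate and 43.1 ± 1.82 RPKM on ammonium nitrate (SD, n = 3 each; adjusted p = 0.000644). JAM3, a bHLH protein that opposes MYC factors at shared sites, rose to 18.1 ± 1.23 RPKM on glutamate, against 13.2 ± 0.485 RPKM on ammonium nitrate. RGA, the DELLA repressor of gibberellin responses, fell to 28.1 ± 0.811 RPKM on glutamate, against 35.9 ± 0.968 RPKM on ammonium nitrate (SD, n = 3 each).

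Of 13 genes of jasmonate synthesis 8 rose, 3 fell and 2 did not pass, and the median log2 fold change was 0.35. By comparison, 35.0% of all tested genes were called higher and 36.8% lower. OPCL1, a CoA ligase that prepares the precursor for beta-oxidation, rose to 19.5 ± 1.81 RPKM on glutamate, against 5.55 ± 0.456 RPKM on ammonium nitrate. OPR3, the peroxisomal reductase of the pathway, rose 2.08-fold (adjusted p = 1.83e-06). AOC1, an allene oxide cyclase, fell, with a ratio of 0.352 (adjusted p = 2.93e-06). The list thus held members that moved either way, and 1 of the 8 that rose, LOX4, named after its values were seen, passed the filter on level only through glutamate. When single libraries were left out, 6 to 9 genes of the list were called higher and 2 to 3 lower. With equal totals 10 were called higher and 2 lower.

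Of 11 genes of jasmonate turnover, whose enzymes oxidise, cleave or conjugate the hormone, 9 passed the filter on level. All 9 rose, against 35.0% of all tested genes called higher. Among the 9, 3 had a mean over 1 RPKM on glutamate only, so that they passed the filter through that group. AT3G55970, named jasmonate-regulated gene 21 in the annotation, had 3.49, 5.01 and 3.28 RPKM on glutamate and 0.285, 0.297 and 0.0942 RPKM on ammonium nitrate (log2 2.00 ± 0.15, SE, adjusted p = 6.77e-06). ST2A, a sulfotransferase acting on hydroxyjasmonate, rose to 12.6 ± 1.94 RPKM on glutamate, against 2.59 ± 0.611 RPKM on ammonium nitrate. IAR3, an amidohydrolase that cleaves the amino acid conjugate, rose to 91.8 ± 9.75 RPKM on glutamate, against 47.8 ± 2.78 RPKM on ammonium nitrate (SD, n = 3 each).

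Downstream of the repressors, the 7 listed targets of the MYC branch were split: 3 rose, 3 fell and 1 did not pass. The median log2 fold change was 0.15, and 35.0% of all tested genes were called higher and 36.8% lower. NAC019, a transcription factor induced by MYC2, rose to 20.5 ± 2.22 RPKM on glutamate, against 1.03 ± 0.20 RPKM on ammonium nitrate. NAC055, its close relative, rose 3.78-fold (adjusted p = 9.79e-07), and TAT3, a tyrosine aminotransferase, rose to 5.25 ± 1.74 RPKM on glutamate, against 0.492 ± 0.189 RPKM on ammonium nitrate (SD, n = 3 each). TAT3 passed the filter on level only through glutamate. VSP2, the vegetative storage protein gene often used as the marker of this branch, was named after its values were seen. It had 5.70, 4.29 and 5.30 RPKM on glutamate and 16.1, 6.57 and 14.6 RPKM on ammonium nitrate, lower in each glutamate library (log2 -1.06 ± 0.28, SE, adjusted p = 0.00894). With no filter on level its adjusted p was 0.0569, and over the alternatives it ran between 3.34e-05 and 0.261.

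Of the 5 listed targets of the ERF branch, which works with ethylene, 4 rose and 1 did not pass, and the median log2 fold change was 1.14. The share called higher over all tested genes was 35.0%. ERF1, a transcription factor of that branch, passed the filter on level only through glutamate. It had 5.43, 5.18 and 5.50 RPKM on glutamate and 0.643, 0.428 and 0.303 RPKM on ammonium nitrate (limma adjusted p = 8.01e-07). The gene that did not pass was ORA59, named after its values were seen. It had 11.0 ± 0.614 RPKM on glutamate and 10.2 ± 2.82 RPKM on ammonium nitrate (SD, n = 3 each; limma adjusted p = 0.52). PR4 and CHI-B, chitin-binding and chitinase defence proteins, rose 2.20-fold and 1.51-fold. PDF1.2A, also named after its values were seen, had 72.6, 189 and 62.6 RPKM on glutamate and 3.12, 2.14 and 5.35 RPKM on ammonium nitrate (limma adjusted p = 2.43e-05). Its glutamate replicate 2 was well above the other libraries of that group.

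**Figure D4:**
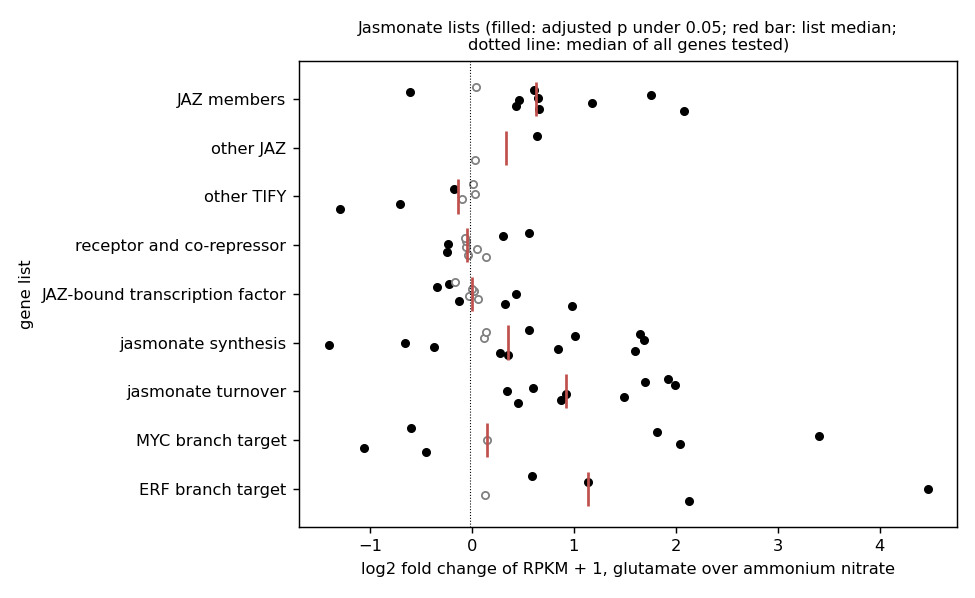
Log2 fold change of RPKM + 1, glutamate over ammonium nitrate, for each tested gene of the 9 jasmonate lists; filled points have an adjusted p under 0.05, red bars are list medians and the dotted line is the median of all tested genes. All 9 tested turnover genes are to the right of 0, while the MYC branch targets fall on both sides.

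Markers of the organs that a whole seedling contains also differed between the groups. The 11 root markers summed to 188, 228 and 223 RPKM on glutamate and 138, 140 and 94.6 RPKM on ammonium nitrate, and 10 of the 11 rose. The 8 leaf markers of photosynthesis summed to 13528 to 15628 RPKM on glutamate and 32715 to 34885 RPKM on ammonium nitrate. All 8 fell, and over all tested genes the calls were 35.0% higher and 36.8% lower. Both kinds of marker were present in each library, as the label of whole seedlings implies, and 3 of 4 floral markers were under 1 RPKM in every library. The other floral marker, PI, named after its values were seen, had 1.37 to 3.08 RPKM over the 6 libraries. In bulk samples fewer cells of a type and less RNA per cell cannot be told apart, and the part of organ composition in the JAZ values was not tested.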

How the data were processed

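RPKM values of 33602 genes in 6 libraries were deposited; the name of the table says that the authors applied TMM normalization. It also holds the deposited gene lengths in kilobases and a fraction per gene, by its name the largest share of multiply mapped reads, which was above 0 for 2653 genes. TAIR10 and SAMtools are named per the submitters' processing notes; the sources used here do not give the aligner or the read counter. RPKM times length gave whole reads plus 0.5 read, within 0.05 read, for 100% of genes without multiply mapped reads and for 96.0% to 96.5% of all genes; library totals come from these reads. More genes held 2 reads than 1, so reads are not independent molecules, and no source says if mates counted as separate reads.

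Genes whose mean reached 1 RPKM were tested in limma 3.58.1 (R 4.3.3) with its trend option, on log2(RPKM + 1), glutamate against ammonium nitrate, two-sided, at an adjusted p of 0.05. The procedure was run on simulated data in which far fewer genes changed than were called here. That run does not measure the error of the calls in these data. The JAZ members and the gene lists were chosen with earlier results of these data known. Genes named were the 10 members, the other JAZ genes, COI1, NINJA, TPL and MYC2, up to 3 genes per other list with the smallest p, and the 5 genes nearest to JAZ1; exceptions are stated. Gene names, positions and sequences are from RefSeq's TAIR10.1 annotation; the deposited table has no coordinates. Motifs were sought upstream of the first annotated base of each gene. Alternatives were other pseudocounts, filters and scaling, a test against a 1.5-fold change, a replicate block and leaving out each library.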

Additional observations from a re-analysis of the deposited data

How the results depend on the processing

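The 10 JAZ genes gave 136 log2 fold changes under the alternatives, of which 129 kept their direction and their side of the threshold; over 42 of the named genes it was 550 of 579, with 24 calls lost, 2 gained (JAZ12 and COI1, with equal totals) and 3 changes of sign. The changes of sign were JAZ4, between -0.070 and 0.10 without single libraries, and NINJA, 0.051 with equal totals; neither passed the test. Leaving out any one library kept 8 members higher and 1 lower. The test against a 1.5-fold change left 3 members higher (JAZ1, JAZ5 and JAZ8) and 0 lower, and 2304 genes higher and 1799 lower over all. A filter at a mean of 5 RPKM left 4 members called higher, because fewer members were tested. For both the receptor and co-repressor genes and the JAZ-bound transcription factors the 1.5-fold test gave 0 calls higher and 0 lower. Its calls higher and lower were 5 and 1 for synthesis, 5 and 0 for turnover and 0 and 0 for other JAZ genes. Other TIFY genes had 0 and 1, and MYC branch targets 3 and 0. With the 5 RPKM filter 3 turnover genes were called higher, and with no filter 1 MYC branch target was called lower. With equal totals, which moved the median of all genes by 0.0996, receptor and co-repressor genes had 4 calls higher and 1 lower, other TIFY genes 1 higher and JAZ-bound factors 1 lower; 8455 genes were called higher and 5989 lower, and the summed JAZ ratio was 1.56. With a pseudocount of 0.1 RPKM the difference between JAZ5 and JAZ6 was 1.18 and that between JAZ7 and JAZ8 -3.00. Same-numbered replicates did not deviate together (correlations of 0.105, 0.0481 and -0.0125); with a replicate block 8 members were higher and 1 lower, 2 JAZ-bound factors were lower, and 6929 genes were higher and 7265 lower.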

Other observations

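Within each group one library was often extreme for the JAZ genes, a pattern noticed after the values were seen and not tested. Glutamate replicate 1 held the highest value of its group for 6 of the 10 members, against 35.4% of all tested genes. Ammonium nitrate replicate 2 held the lowest value of its group for 6 of the 10 members, against 38.5% of all tested genes. The shares differed among the other jasmonate lists. Of the turnover genes 11.1% were highest in glutamate replicate 1 and 77.8% in glutamate replicate 2, and 22.2% were lowest in ammonium nitrate replicate 2. The receptor and co-repressor genes were also mostly highest in glutamate replicate 2. Of the JAZ-bound transcription factors 27.3% were highest in glutamate replicate 1 and 27.3% lowest in ammonium nitrate replicate 2. Of the jasmonate synthesis genes 69.2% were highest in glutamate replicate 1 and 61.5% lowest in ammonium nitrate replicate 2, and 80.0% of the 5 ERF branch targets were lowest in ammonium nitrate replicate 2. None of the ERF branch targets was highest in glutamate replicate 1, and 80.0% were highest in glutamate replicate 2. Other TIFY genes were lowest in ammonium nitrate replicate 2 in 66.7% of cases and MYC branch targets in 57.1%. In glutamate replicate 1 these 2 lists were highest in 33.3% and 28.6% of cases.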
